A study of Mus musculus with 12 samples.

Results

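Krüppel-like factors (KLFs) are transcription factors with zinc fingers at the C-terminal end that bind GC-rich and CACCC sequences. The 9 KLF genes described here are Klf2, Klf3, Klf4, Klf6, Klf7, Klf9, Klf10, Klf11 and Klf13, taken by gene symbol from a table of 55487 genes. They were measured in poly-A RNA of mouse spleen B cells that the labels call naive. The 4 groups, with 3 libraries each, were Fcmr KO cells at 6 h, Fcmr KO cells at 1 h, WT cells at 6 h and WT cells at 1 h. Fcmr encodes the Fc receptor for IgM, and the labels do not give the allele, the strain, the age or the number of mice. All 4 groups were cultured with F(ab')2 anti-IgM at 10 µg/mL, which crosslinks the IgM form of the B cell receptor and lacks the Fc part of the antibody. No group without anti-IgM was analysed here, so time in culture and time since receptor crosslinking cannot be told apart. No time before 1 h was analysed either, so the level in resting cells is not known. A fall from 1 h to 6 h can be a loss from that level or the end of a rise at 1 h, and these cannot be told apart. Levels are FPKM, fragments scaled to transcript length and library size, and can therefore be set against each other between genes.

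KLF proteins share their zinc fingers and differ in the domain ahead of them. KLF2, KLF4, KLF6 and KLF7 carry activating domains, KLF3 recruits the corepressor CtBP, and KLF9, KLF10, KLF11 and KLF13 bind the corepressor SIN3A. In lymphocytes KLF2 and KLF4 are best known as factors of resting cells: in mice KLF2 maintains the homing receptors of naive lymphocytes and, in B cells, restrains the marginal zone fate, and KLF4 restrains division. KLF10 and KLF11 were first described as genes induced early by TGF-beta.

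All 9 KLF genes had a lower level at 6 h than at 1 h of anti-IgM, in both genotypes. The size of the fall set the genes apart, from 29.8 times in KO and 35.4 times in WT cells for Klf4 to 1.44 times in KO and 1.48 times in WT cells for Klf3. No KLF gene differed between KO and WT cells at an adjusted p under 0.05, at either time. The summed FPKM of the 9 genes was 100.6 ± 0.805 in KO cells at 6 h and 355.6 ± 6.44 in KO cells at 1 h (SD, n = 3 each). In WT cells it was 104.0 ± 1.84 at 6 h and 390.1 ± 23.6 at 1 h (SD, n = 3 each).

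The libraries held 19260751 to 24058818 fragments, so that a count of 3 on 2 kb of transcript is worth 0.0623 to 0.0779 FPKM, a limit set by counting error alone. The labels speak of triplicate biological samples and name no animals. A p-value reflects the spread among the 3 libraries within a group, pooled over the 4 groups, and this spread may be technical. Fcmr, the gene removed in KO mice, had a mean FPKM of 44.05 ± 2.06 in KO against 383.0 ± 16.9 in WT cells at 6 h and of 49.3 ± 0.664 in KO against 373.1 ± 18.5 in WT at 1 h (n = 3 each, ± SD). All 8 B cell markers were detected, and their summed level was 3700 to 5699 FPKM in KO at 6 h, 6671 to 9531 FPKM in KO at 1 h, 2809 to 4391 FPKM in WT at 6 h and 5514 to 7529 FPKM in WT at 1 h. The WT libraries fell apart in a marker list of another cell type. The 10 neutrophil markers summed to 15.8 to 42.9 FPKM in KO at 6 h and 26.2 to 71.9 FPKM in KO at 1 h. WT replicates 1 and 2 lay above every KO library, at 385 and 277 FPKM at 6 h and at 853 and 436 FPKM at 1 h, while WT replicate 3 lay within the KO range at each time, at 17.1 and 58.0 FPKM. The KO against WT differences of Klf2, Klf9 and Klf11 are therefore also given without WT replicates 1 and 2 and without WT replicate 3. In bulk RNA, fewer cells of a type and less RNA per cell cannot be told apart.

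**Figure D1:**
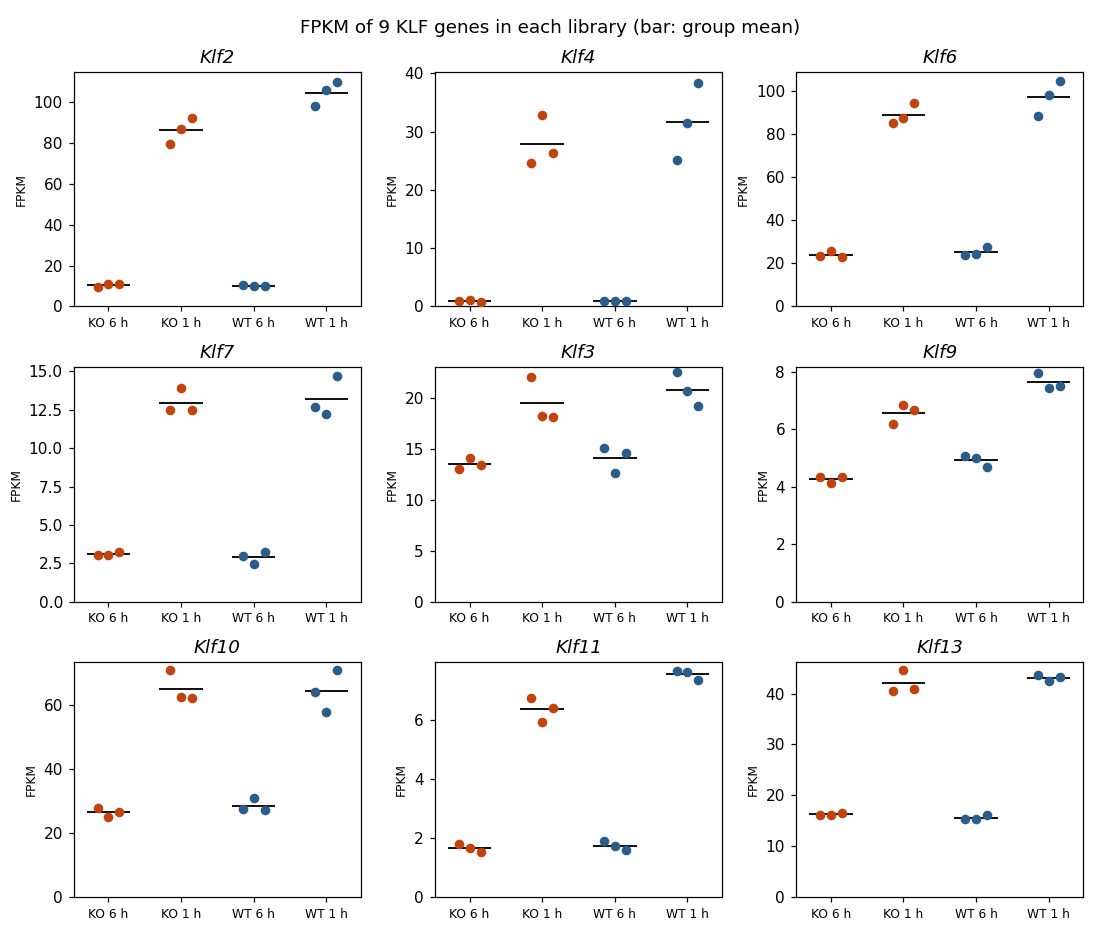
FPKM of the 9 KLF genes (vertical axes, each from 0) in every library, by group (horizontal axes), with the group mean as a bar. In each panel the 3 libraries at 6 h lie below the 3 libraries at 1 h of the same genotype, by the largest ratio for Klf4 and then Klf2.

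The promoters of the genes at both ends of this range are printed for comparison, as the 250 bases before the transcription start in the RefSeq annotation (GRCm38.p6). Klf4 and Klf2 fell most, and Klf9 and Klf3 fell least. Capitals mark matches on either strand to an EGR site (GCGGGGGCG), the E-box (CACGTG), the CCAAT box (CCAAT), the cyclic AMP response element half-site (TGACG), an AP-1 site (TGANTCA), a FOXO site (GTAAACA), the MEF2 site and the CArG box. The Klf4 window is chr4:55532476-55532725 on the minus strand, the Klf2 window chr8:72318812-72319061 on the plus strand, the Klf9 window chr19:23140976-23141225 on the plus strand and the Klf3 window chr5:64803271-64803520 on the plus strand. All are written 5′ to 3′ on the strand of the gene.
Klf4 promoter: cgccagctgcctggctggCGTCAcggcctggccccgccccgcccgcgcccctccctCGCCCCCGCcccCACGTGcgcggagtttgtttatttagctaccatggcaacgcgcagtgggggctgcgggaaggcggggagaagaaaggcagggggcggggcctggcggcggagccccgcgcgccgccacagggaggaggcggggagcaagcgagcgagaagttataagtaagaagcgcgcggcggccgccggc
Klf2 promoter: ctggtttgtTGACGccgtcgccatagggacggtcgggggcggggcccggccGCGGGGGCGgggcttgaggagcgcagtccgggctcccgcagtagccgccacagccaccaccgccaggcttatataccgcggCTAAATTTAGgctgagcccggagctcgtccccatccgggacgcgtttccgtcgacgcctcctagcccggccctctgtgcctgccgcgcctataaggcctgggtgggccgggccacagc
Klf9 promoter: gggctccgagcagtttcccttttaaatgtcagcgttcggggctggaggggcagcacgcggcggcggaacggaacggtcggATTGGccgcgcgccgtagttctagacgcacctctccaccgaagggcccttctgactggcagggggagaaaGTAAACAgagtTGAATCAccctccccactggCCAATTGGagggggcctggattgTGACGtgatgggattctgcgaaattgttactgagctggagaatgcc
Klf3 promoter: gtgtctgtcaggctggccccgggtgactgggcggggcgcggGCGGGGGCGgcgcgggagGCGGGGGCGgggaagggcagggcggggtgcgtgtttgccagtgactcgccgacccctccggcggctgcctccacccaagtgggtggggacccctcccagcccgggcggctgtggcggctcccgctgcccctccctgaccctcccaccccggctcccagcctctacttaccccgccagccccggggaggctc
The table of promoters matched 8 of the 9 genes. Klf2 alone among the 8 held a MEF2 match, CTAAATTTAG at positions -118 to -109 from the start, against 2.92% of 32851 promoters of the same length. EGR matches stood in Klf2, Klf3 and Klf4, so in both the steepest and a shallow faller, against 2.57% of all promoters. E-boxes were found in Klf4, Klf6 and Klf11 (6.02% of all promoters) and the TGACG half-site in Klf2, Klf4, Klf9 and Klf13 (17.8%). Klf9 alone held an AP-1 match (6.75%) and a FOXO match (3.17%). The GC box GGGCGG, which KLF and SP proteins bind and which can overlap an EGR match, was in 7 of the 8 (32.7% of all promoters), and CACCC was in 5 of the 8 (52.0%). CCAAT was in 4 of the 8 (33.8%), and the CArG box was in 0 of the 8 (1.47%). The 8 windows held from 59.2% G and C (Klf7) to 78.4% (Klf3), against a median of 52.4% over all promoters. The shares over all promoters were not matched for this content. Motifs rich in G and C, such as the EGR site and the GC box, are thus set against windows poorer in both. A match is a run of letters and was not tested as a binding site.

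Of the activating factors, Klf2 (ENSMUSG00000055148, mm10 chromosome 8, 72319033 to 72321656) stood at 9.65, 10.9 and 11.1 FPKM in KO cells at 6 h, against 79.3, 86.8 and 92.1 FPKM in KO cells at 1 h. In WT cells it stood at 10.6, 9.88 and 9.97 FPKM at 6 h, against 98.1, 105.9 and 109.7 FPKM at 1 h. The libraries of the 2 times lay far apart in each genotype. Those of the 2 genotypes separated at 1 h alone, with KO lower, as did those of 8.59% of all genes tested. The log2 fold change from 1 h to 6 h was -2.91 in KO and -3.24 in WT cells (SE 0.07 each, limma adjusted p = 1.62e-10 and 9.4e-11). Among the 11841 genes tested, ranked from the largest fall, Klf2 was number 41 in KO and 24 in WT cells.

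Klf4 (ENSMUSG00000003032, chromosome 4, 55527143 to 55532466), also one of the factors used to reprogram cells to pluripotency, fell furthest of the 9. It was at 0.919, 1.05 and 0.840 FPKM in KO cells at 6 h, against 24.6, 32.9 and 26.3 FPKM in KO cells at 1 h. It was at 0.862, 0.8996 and 0.921 FPKM in WT cells at 6 h, against 25.1, 31.6 and 38.4 FPKM in WT cells at 1 h. Both genotypes therefore reached the same low level at 6 h, with 56 to 69 fragments per library in KO and 54 to 67 in WT cells, while the libraries at 1 h spread widely and overlapped. The log2 fold change of FPKM + 1 was -3.89 in KO and -4.09 in WT cells (SE 0.14 each, limma adjusted p = 1.38e-09 and 9.38e-10), which placed Klf4 number 9 and number 6 from the largest fall. The added 1 understates this change. Klf4 passed the filter of a mean of 1 FPKM through its level at 1 h.

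Klf6 and Klf7 encode activators outside the group of quiescence factors, and both fell about as far as each other. Klf6 (ENSMUSG00000000078, chromosome 13, 5861482 to 5870394) was at 23.2, 25.6 and 23.1 FPKM in KO at 6 h, 85.3, 87.3 and 94.6 FPKM in KO at 1 h, 23.9, 24.2 and 27.8 FPKM in WT at 6 h and 88.2, 98.3 and 104.8 FPKM in WT at 1 h. Its log2 fold change was -1.85 in KO and -1.90 in WT cells (SE 0.08 each, limma adjusted p = 3.64e-09 and 3e-09). Klf7 (ENSMUSG00000025959, chromosome 1, 64029447 to 64122282), expressed at lower levels, was at 3.01, 3.06 and 3.24 FPKM in KO at 6 h, 12.5, 13.9 and 12.5 FPKM in KO at 1 h, 2.97, 2.48 and 3.22 FPKM in WT at 6 h and 12.7, 12.3 and 14.7 FPKM in WT at 1 h. It changed by -1.76 in KO and -1.87 in WT cells (SE 0.08 each, limma adjusted p = 8.98e-09 and 5.81e-09). For both genes the genotypes overlapped at each time.

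Klf3 (ENSMUSG00000029178, chromosome 5, 64803388 to 64832901), whose product represses through CtBP, fell little. It was at 13.0, 14.1 and 13.5 FPKM in KO at 6 h, 22.1, 18.2 and 18.2 FPKM in KO at 1 h, 15.1, 12.6 and 14.6 FPKM in WT at 6 h and 22.6, 20.7 and 19.2 FPKM in WT at 1 h. All libraries at 6 h lay below all libraries at 1 h, while the genotypes overlapped at both times. The log2 fold change was -0.49 in KO and -0.54 in WT cells (SE 0.09 each, limma adjusted p = 0.000357 and 0.000189). These placed Klf3 number 2457 and number 2478 from the largest fall, so that many genes fell further.

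Among the factors that bind SIN3A, falls were small for Klf9 and larger for the rest. Klf9 (ENSMUSG00000033863, chromosome 19, 23141226 to 23168134), a gene induced by glucocorticoid and thyroid hormone, fell as little as Klf3. It was at 4.33, 4.14 and 4.34 FPKM in KO at 6 h, 6.18, 6.85 and 6.68 FPKM in KO at 1 h, 5.08, 5.001 and 4.68 FPKM in WT at 6 h and 7.97, 7.44 and 7.51 FPKM in WT at 1 h. The KO and WT libraries did not overlap at either time, with KO lower. The same held for 6.97% of all genes tested at 6 h and 8.59% at 1 h, and the share at both times was not counted. The log2 fold change of Klf9 with time was -0.52 in KO and -0.55 in WT cells (SE 0.05 each, limma adjusted p = 3.33e-06 and 2.23e-06).

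Klf10, Klf11 and Klf13 fell further than Klf9. Klf10 (ENSMUSG00000037465, chromosome 15, 38291463 to 38300706), the TGF-beta early gene also called TIEG1, was at 27.9, 24.9 and 26.3 FPKM in KO at 6 h, 70.8, 62.3 and 62.0 FPKM in KO at 1 h, 27.3, 30.9 and 27.3 FPKM in WT at 6 h and 63.9, 57.9 and 71.0 FPKM in WT at 1 h. Its log2 fold change was -1.27 in KO and -1.14 in WT cells (SE 0.08 each, limma adjusted p = 9.74e-08 and 2.17e-07). It was the 1 of the 9 whose fall was nominally larger in KO cells. Klf11 (ENSMUSG00000020653, chromosome 12, 24651274 to 24662789), its closest relative, was far less abundant, at 1.78, 1.64 and 1.52 FPKM in KO at 6 h, 6.75, 5.91 and 6.39 FPKM in KO at 1 h, 1.88, 1.72 and 1.57 FPKM in WT at 6 h and 7.64, 7.62 and 7.34 FPKM in WT at 1 h. It changed by -1.47 in KO and -1.65 in WT cells (SE 0.07 each, limma adjusted p = 5.88e-09 and 2.68e-09). Its KO libraries lay below its WT libraries at 1 h, as for 8.59% of all genes tested, and overlapped them at 6 h. Klf13 (ENSMUSG00000052040, chromosome 7, 63886351 to 63938915), known in T cells as an activator of the chemokine gene Ccl5, was at 16.04, 16.07 and 16.6 FPKM in KO at 6 h, 40.6, 44.7 and 40.9 FPKM in KO at 1 h, 15.4, 15.3 and 16.1 FPKM in WT at 6 h and 43.6, 42.6 and 43.4 FPKM in WT at 1 h. It changed by -1.32 in KO and -1.41 in WT cells (SE 0.04 each, limma adjusted p = 7.98e-10 and 5.45e-10), with a narrow spread in every group.

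Across the 9 genes, 9 of 9 were called lower at 6 h in KO cells, where 78.5% of all genes tested were called, 27.9% lower and 50.6% higher. In WT cells 9 of 9 were called lower, against 78.7% of all genes tested called, 29.2% lower and 49.5% higher. The median log2 fold change of the 9 was -1.47 in KO and -1.65 in WT cells, against 0.22 and 0.21 over all genes tested. Scaling by the median of ratios moved the all-gene median to -0.02 in both genotypes and the shares to 38.3% lower and 38.9% higher in KO, and to 39.1% lower and 38.7% higher in WT cells. Under that scaling the 9 genes were still all called lower, with medians of -1.68 in KO and -1.85 in WT cells. B cell markers fell too, 7 of 8 in each genotype, with a median of -1.07 in KO and -1.08 in WT cells. Markers of monocytes and macrophages fell further. Of these, 11 of 12 were called lower and 1 higher in KO cells, and 10 of 12 lower and 0 higher in WT cells. Their medians were -1.26 in KO and -1.51 in WT cells. The part of B cells or of other cells in the falls of the KLF genes was not tested.

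**Figure D2:**
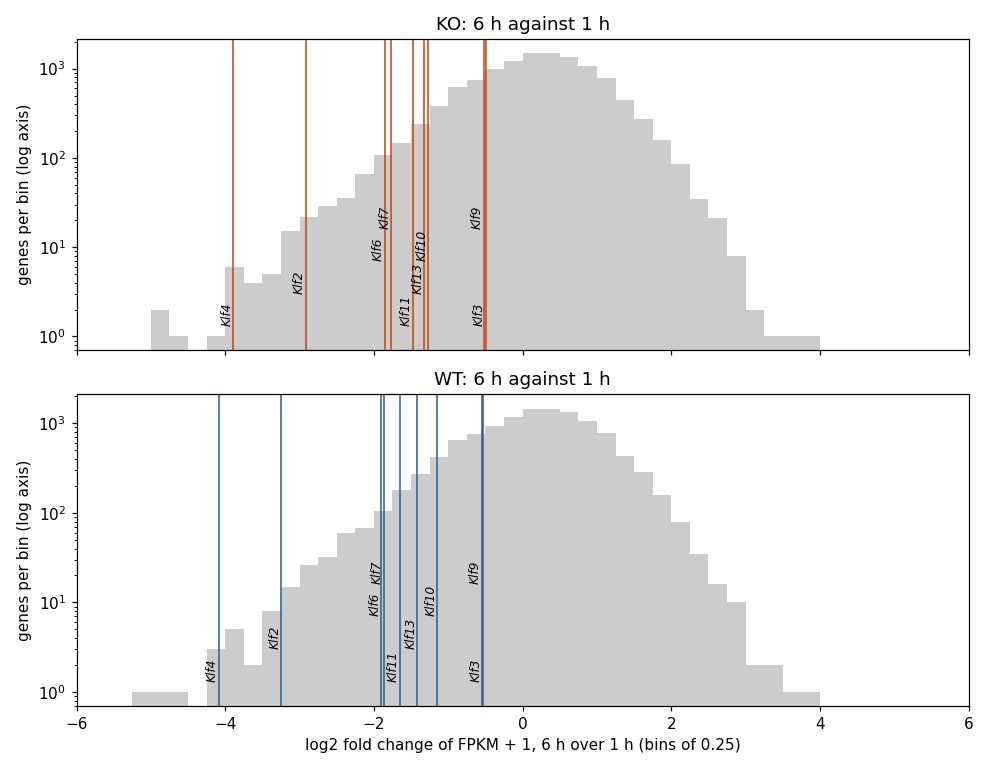
Number of genes (vertical, log axis) per bin of log2 fold change of FPKM + 1 from 1 h to 6 h (horizontal) for the 11841 genes tested, in KO cells above and WT cells below, with a line at each KLF gene. All 9 lines lie left of the all-gene medians of 0.22 in KO and 0.21 in WT cells, with Klf4 and Klf2 far into the tail of falling genes.

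The level left at 6 h, as a percentage of that at 1 h in the library of the same genotype and replicate number, ordered the genes in steps. Klf4 kept the least, with a median of 3.20% over 6 pairs (range 2.40 to 3.74%), and Klf2 followed with 11.4% (9.09 to 12.5%). Klf7 (22.7%, 20.3 to 26.0%), Klf11 (24.2%, 21.4 to 27.7%) and Klf6 (26.8%, 24.4 to 29.3%) overlapped in this order, as did Klf13 (36.6%, 35.2 to 40.5%) and Klf10 (41.2%, 38.4 to 53.3%). Klf9 (64.4%, 60.4 to 70.0%) and Klf3 (70.4%, 58.9 to 77.4%) overlapped at the high end. The ranges were apart between Klf4 and Klf2, Klf2 and Klf7, Klf6 and Klf13, and Klf10 and Klf9. These ranges describe 6 pairs of libraries and were not tested between genes.

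**Figure D3:**
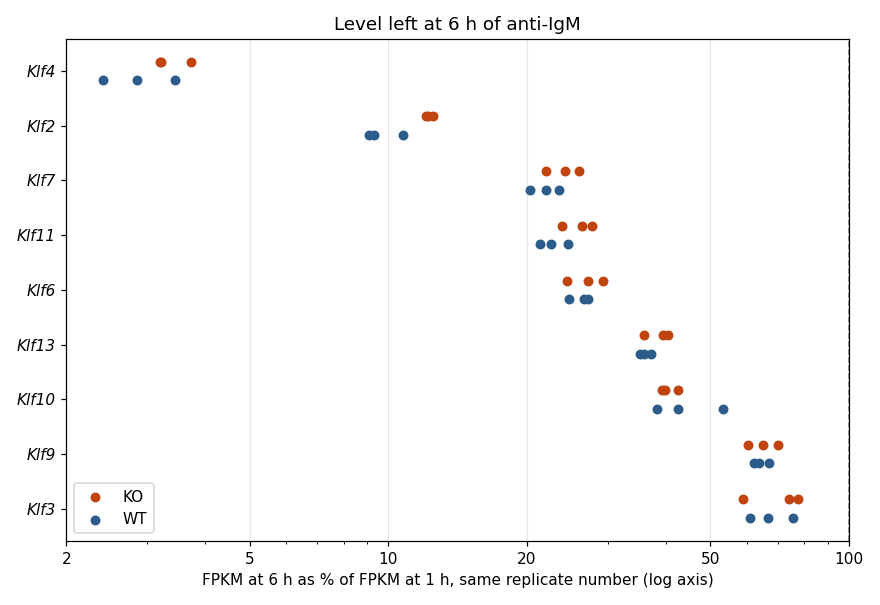
FPKM at 6 h as a percentage of FPKM at 1 h in the library of the same genotype and replicate number (horizontal, log axis) for each KLF gene, with KO points above WT points and 3 of each. The points run from a median of 3.20% for Klf4 to 70.4% for Klf3, and the KO points of Klf2 lie to the right of its WT points.

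As a result the makeup of the KLF pool differed between the times. Klf2 made up 10.5% of the summed FPKM in KO at 6 h and 24.2% in KO at 1 h, and 9.75% in WT at 6 h and 26.8% in WT at 1 h. Klf4 made up 0.931% in KO at 6 h and 7.84% in KO at 1 h, and 0.860% in WT at 6 h and 8.08% in WT at 1 h. Klf10 and Klf3 took larger shares at 6 h, where the total was lower. Klf10 made up 26.2% in KO at 6 h and 18.3% in KO at 1 h, and 27.4% in WT at 6 h and 16.5% in WT at 1 h. Klf3 made up 13.4% in KO at 6 h and 5.49% in KO at 1 h, and 13.5% in WT at 6 h and 5.37% in WT at 1 h. Klf6 held about the same share throughout, at 23.8% in KO at 6 h, 25.1% in KO at 1 h, 24.3% in WT at 6 h and 24.9% in WT at 1 h.

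At 6 h the order of FPKM in both genotypes ran Klf10, Klf6, Klf13, Klf3, Klf2, Klf9, Klf7, Klf11 and Klf4, and of these neighbours Klf10 and Klf6 alone overlapped. At 1 h it ran Klf6, Klf2, Klf10, Klf13, Klf4, Klf3, Klf7, Klf9 and Klf11 in KO cells, with Klf2 ahead of Klf6 in WT cells. There Klf2 overlapped Klf6 and Klf9 overlapped Klf11 in both genotypes, and the other neighbours were apart. Klf4 thus stood above Klf3, Klf7, Klf9 and Klf11 at 1 h and last of the 9 at 6 h.

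**Figure D4:**
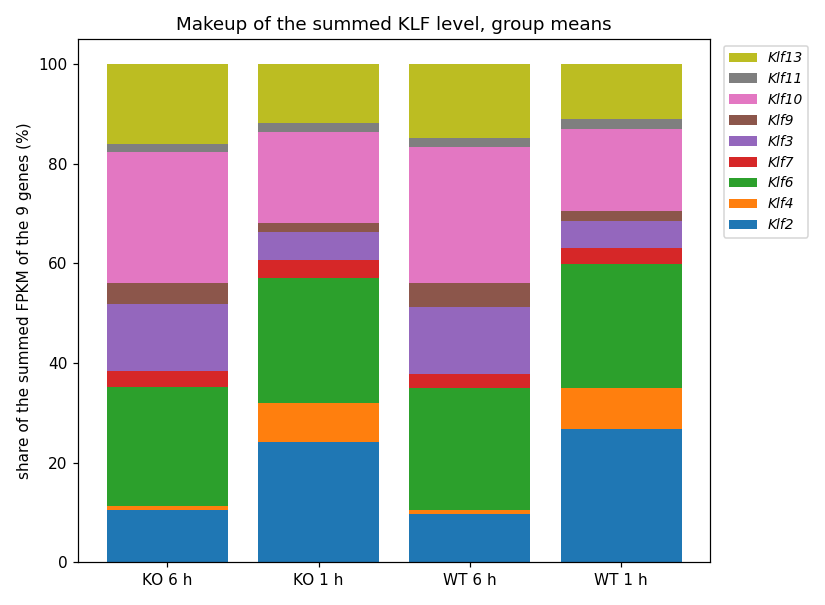
Share of the summed FPKM of the 9 KLF genes taken by each gene (vertical, in percent), as group means of 3 libraries, for KO and WT cells at 6 h and 1 h. The Klf2 and Klf4 bands are narrower at 6 h than at 1 h in both genotypes, and the Klf10, Klf13 and Klf3 bands are wider.

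By its title the series concerns B cell receptor signalling in cells without Fcmr, and the comparison of KO with WT cells addresses it for the KLF genes. At 1 h, limma called 0 of 9 KLF genes, where it called 0.524% of all genes tested, and 3 of the 9 (Klf2, Klf9 and Klf11) had an unadjusted p under 0.05. All 3 were lower in KO cells, and they were also the 3 of 9 genes (33.3%) whose KO and WT libraries did not overlap. Over all genes tested, the 3 libraries of each genotype stood apart with KO lower for 8.59% at 1 h and with KO higher for 6.25%. The sign was negative for 8 of the 9, against 54.6% of all genes tested.

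At 1 h the mean FPKM of Klf2 was 86.05 ± 6.44 in KO against 104.6 ± 5.89 in WT cells (SD, n = 3 each), 82.3% of the WT level. Its log2 fold change of -0.28 (SE 0.07, 95% interval -0.43 to -0.13) did not pass after adjustment by limma (adjusted p = 0.129), and its adjusted p ranged from 0.0699 to 1 over the alternative settings. Klf11 had a mean FPKM of 6.35 ± 0.420 in KO against 7.54 ± 0.169 in WT cells (SD, n = 3 each), a difference of -0.22 (SE 0.07, 95% interval -0.36 to -0.07, limma adjusted p = 0.216). Klf9 had a mean FPKM of 6.57 ± 0.348 in KO against 7.64 ± 0.288 in WT cells (SD, n = 3 each), a difference of -0.19 (SE 0.05, 95% interval -0.31 to -0.08, limma adjusted p = 0.166). Without WT replicate 3 at both times the differences were -0.24 for Klf2, -0.23 for Klf11 and -0.20 for Klf9 (limma adjusted p = 0.163, 0.154 and 0.135). Without WT replicates 1 and 2, where the lone WT library of each time is taken to vary like the other groups, they were -0.35, -0.18 and -0.17 (limma adjusted p = 0.474, 0.718 and 0.656). The 3 genes were those without overlap at 1 h, so WT replicate 3 lay above all 3 KO libraries by their choice. At 1 h its neutrophil, erythroid, and endothelial and stromal markers summed to within the KO range. Its NK cell markers (101.6 against 53.5 to 58.9 FPKM) and monocyte and macrophage markers (325 against 212 to 280 FPKM) lay above that range. So did its markers of T cells (56.3 against 34.9 to 53.3 FPKM), dendritic cells (22.3 against 16.7 to 18.5 FPKM) and platelets (10.26 against 8.48 to 10.11 FPKM). Its B cell markers lay below the KO range (5514 against 6671 to 9531 FPKM). Over all alternatives the adjusted p ranged from 0.125 to 1 for Klf11 and from 0.121 to 1 for Klf9. The other 6 genes had 95% intervals that included 0, with values of -0.17 for Klf4 (interval -0.47 to 0.14), -0.12 for Klf6, -0.09 for Klf3, -0.04 for Klf13, -0.02 for Klf7 and 0.02 for Klf10. Klf4 depended most on the WT libraries, at -0.46 without WT replicates 1 and 2 and -0.02 without WT replicate 3.

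At 6 h, limma called 0 of 9 KLF genes, where it called 0.228% of all genes tested, and Klf9 alone had an unadjusted p under 0.05. Its mean FPKM was 4.27 ± 0.114 in KO against 4.92 ± 0.212 in WT cells (SD, n = 3 each), 86.8% of the WT level, beside 85.97% at 1 h. Its difference was -0.17 (SE 0.05, 95% interval -0.28 to -0.05, limma adjusted p = 0.396), and -0.20 without WT replicate 3 (adjusted p = 0.262, the lowest of the alternatives, which reached 1) and -0.11 without WT replicates 1 and 2 (adjusted p = 0.977). It was the 1 of 9 genes (11.1%) whose libraries did not overlap at 6 h, where 6.97% of all genes tested lay apart with KO lower and 8.1% with KO higher. The other 8 genes differed by -0.11 (Klf10) to 0.08 (Klf7), with intervals that included 0. Klf2 differed by 0.05 (95% interval -0.10 to 0.20), with a mean FPKM of 10.5 ± 0.776 in KO against 10.1 ± 0.365 in WT cells (SD, n = 3 each).

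Markers of monocytes and macrophages had a lower sum in the KO than in the WT libraries at 1 h, and the sums overlapped at 6 h. Their 12 markers, none of them at 0 in all libraries, summed to 73.5 to 113 FPKM in KO at 6 h, 212 to 280 FPKM in KO at 1 h, 99.2 to 182 FPKM in WT at 6 h and 325 to 458 FPKM in WT at 1 h. At 1 h, 6 of the 12 were called lower in KO cells, and 0 of 12 at 6 h. Of all genes tested, 0.524% were called in either direction at 1 h and 0.228% at 6 h. Lists of other cells also had negative medians of log2 fold change, KO over WT at 1 h, beside -0.63 for monocytes and macrophages and -0.01 over all genes tested. The median was -1.83 for neutrophils and -0.60 for erythroid cells (0 of 8 tested called in each), -0.32 for NK cells (0 of 6), -0.26 for T cells (0 of 7) and -0.29 for platelets and megakaryocytes (1 of 4 called lower). That of the B cell markers was -0.00435 (0 of 8 called). The part of these cells in the values of Klf2, Klf9 and Klf11 was not tested. The 3 genes whose levels ran closest to Klf9 over the 12 libraries were Tgm2, which encodes a transglutaminase (r = 0.990), Itgb5, an integrin subunit (r = 0.989), and Lpcat2, a lysophospholipid acyltransferase (r = 0.989). Each had a lower mean in KO than in WT cells at both times. They were chosen by likeness to Klf9 in both genotypes, which favours such a gap, so it is no separate evidence on Klf9. Mean FPKM of Tgm2 was 1.11 in KO against 1.82 in WT cells at 6 h, and 5.84 in KO against 8.58 in WT cells at 1 h.

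**Figure D5:**
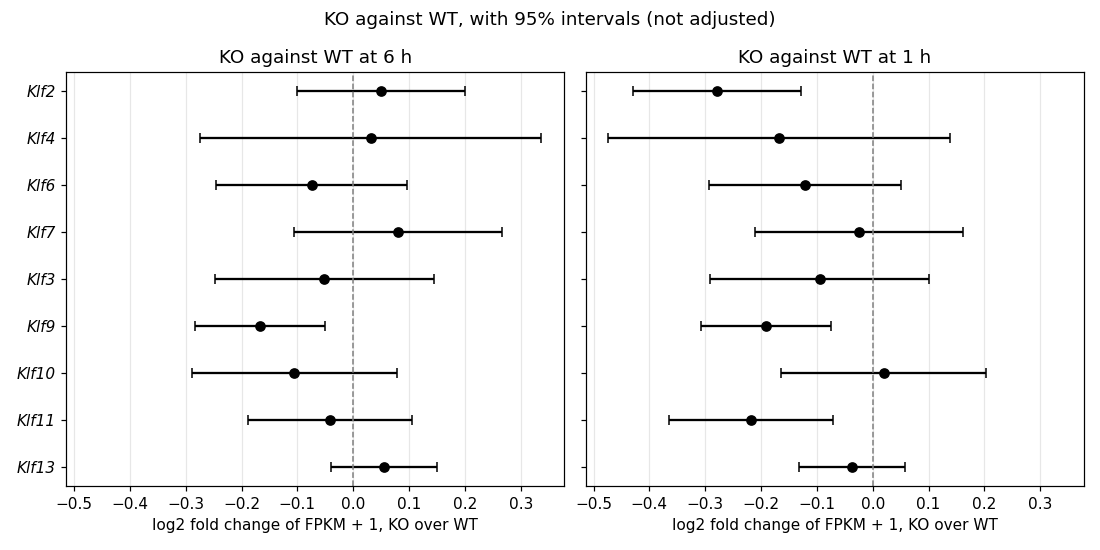
Log2 fold change of FPKM + 1, KO over WT (horizontal), with its 95% interval, for each KLF gene at 6 h (left) and at 1 h (right). At 1 h the intervals of Klf2 (-0.43 to -0.13), Klf9 and Klf11 lie below 0, and at 6 h that of Klf9 alone does, before adjustment over 11841 genes.

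The test of whether the change with time differed between the genotypes called 0 of 9 KLF genes and 0.0253% of all genes tested (3 genes, and 1 gene with the replicate block). Klf2 alone had an unadjusted p under 0.05. Its level at 6 h was 12.2, 12.5 and 12.05% of that at 1 h in KO cells, against 10.8, 9.33 and 9.09% in WT cells. The 3 KO values lay above the 3 WT values, as they did for 6.99% of all genes tested with a level above 0 in every library at 1 h, while for 4.17% they lay below. The difference of the log2 fold changes was 0.33 (SE 0.10, 95% interval 0.12 to 0.54, limma adjusted p = 0.962), and its adjusted p ranged from 0.496 with the replicate block to 1 over the alternative settings. The other 8 genes ran from -0.13 (Klf10) to 0.20 (Klf4), with intervals that included 0.

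The genes most alike each KLF gene were found by Pearson correlation of log2(FPKM + 1) over the 12 libraries, which share 2 times and 2 genotypes, so that any gene that fell steeply correlates. For Klf2 these were Hbp1, which encodes a repressor of cell cycle genes (r = 0.999), Stk17b, a kinase of lymphocytes, and Pglyrp2. For Klf4 they were Sik1, a salt-inducible kinase (r = 0.999), Spns2, a transporter of sphingosine-1-phosphate, and Itprip. For Klf6 they were Tsc22d3, which encodes the glucocorticoid-induced protein GILZ (r = 0.998), Dennd3 and Chsy1, and for Klf7 they were Pcf11 (r = 0.999), Suco and Susd6. Those of Klf3, with a shallower fall, were less alike, with Cenpl (r = 0.974) and Rbm18 among them. Klf10 ran closest to Ddx50 (r = 0.997), Il21r and Tnfrsf1b, Klf11 to Hexim1 (r = 0.997), Cd82 and Dnajb9, and Klf13 to the orphan nuclear receptor gene Nr4a2 (r = 0.999), Nedd9 and Tpd52. Nr4a2 fell far more than Klf13, to 4.99 FPKM at 6 h against 170.4 FPKM at 1 h in KO cells and to 4.35 against 190.0 FPKM in WT cells, so the measure follows shape and not size.

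Once the group means were removed, the KLF genes varied together less. The correlation of their deviations over the 12 libraries was highest for Klf7 with Klf13 (0.683), Klf4 with Klf6 (0.571), Klf4 with Klf7 (0.544) and Klf2 with Klf6 (0.501). It was lowest for Klf11 with Klf13 (-0.801) and Klf3 with Klf4 (-0.600). The activating factors Klf2, Klf4, Klf6 and Klf7 all had positive values with each other, from 0.348 to 0.571. These describe 12 libraries in which the 2 times of a genotype may share animals, and they carry no test.

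Of 17 other listed members of the KLF and SP family, 7 passed the filter, and 2 were called lower and 3 higher at 6 h in each genotype. Over all genes tested, 27.9% were called lower and 50.6% higher in KO, and 29.2% lower and 49.5% higher in WT cells. Median-of-ratios scaling left 1 called higher in each genotype, with 3 lower in KO and 2 lower in WT cells. Sp2 fell, with log2 fold changes of -0.96 in KO and -0.97 in WT cells, and so did Sp4, at -1.10 in KO and -1.11 in WT cells. Klf16 rose by 0.73 in KO and 0.57 in WT cells. Sp1, a general activator at GC boxes, was called higher at 0.21 in KO and 0.20 in WT cells and Sp3 at 0.17 in each, about the all-gene medians, and with that scaling both turned negative, at -0.06 and -0.10 in KO and -0.06 and -0.08 in WT cells. The call of Sp1 held under 21 of 27 alternatives in KO and 16 of 27 in WT cells. Klf8 (0.02 in each genotype) and the erythroid factor Klf1 (-0.85 in KO, -1.28 in WT cells) passed the filter and were called in neither genotype. Of the genes below the filter, Klf12 had a log2 fold change of -0.66 in KO and -0.38 in WT cells in the fit with no filter (limma adjusted p = 0.00474 and 0.0686), and Klf5 of -0.15 in KO and -0.28 in WT cells (limma adjusted p = 0.0792 and 0.00348). In FPKM, Sp1 averaged 51.7 ± 1.54 in KO at 6 h, 44.5 ± 1.14 in KO at 1 h, 49.7 ± 6.19 in WT at 6 h and 42.9 ± 1.27 in WT at 1 h (SD, n = 3 each), so it exceeded each of the 9 KLF genes at 6 h.

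Of 13 cofactors and ubiquitin ligases of KLF proteins tested, 5 were called higher and 5 lower in KO cells, and 5 higher and 4 lower in WT cells. Of all genes tested, 50.6% were called higher and 27.9% lower in KO, and 49.5% higher and 29.2% lower in WT cells. The deacetylase genes parted, with Hdac2 higher by 1.59 in KO and 1.58 in WT cells and Hdac3 by 1.10 in KO and 1.04 in WT cells, while Hdac1 fell by 0.70 in KO and 0.72 in WT cells on the log2 scale. Kat2b, which encodes the acetyltransferase PCAF, changed by -1.47 in KO and -1.45 in WT cells. Median-of-ratios scaling left 4 higher in each genotype, with 6 lower in KO and 7 lower in WT cells.

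Upstream of Klf2 and Klf4, the kinase ERK5 activates MEF2 factors, which drive Klf2, and FOXO1 drives Klf2 in lymphocytes and Klf4 in B cells. Of 12 such genes, 8 were called lower and 1 higher in each genotype, with a median of -0.41 in KO and -0.52 in WT cells, against 0.22 and 0.21 over all genes tested, of which 27.9% in KO and 29.2% in WT cells were called lower. Foxo1 averaged 14.3 ± 0.640 FPKM in KO at 6 h, 49.8 ± 4.49 FPKM in KO at 1 h, 14.95 ± 1.40 FPKM in WT at 6 h and 49.6 ± 2.64 FPKM in WT at 1 h (SD, n = 3 each). Its log2 fold change was -1.73 in KO and -1.67 in WT cells, and Mef2c (-1.36 in KO, -1.37 in WT cells) and Mef2d (-1.02 and -1.07), which encode MEF2 factors, also fell.

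Of 12 genes of lymphocyte homing and B cell subsets that are linked to KLF2, 11 were called lower and 0 higher in each genotype, beside 27.9% of all genes tested called lower in KO and 29.2% in WT cells. Their median log2 fold change was -1.52 in KO and -1.55 in WT cells, against 0.22 and 0.21 over all genes tested. They included S1pr1, the receptor by which lymphocytes leave lymphoid organs (-1.25 in KO, -1.24 in WT cells), Itgb7, an integrin subunit of gut homing (-2.90 and -2.83), the chemokine receptor gene Cxcr4 (-1.57 and -1.54) and Cd69, an activation antigen that holds S1PR1 inside the cell (-2.90 and -2.95). Between genotypes Cxcr4 was higher in KO cells, by 0.76 at 6 h and 0.79 at 1 h (limma adjusted p = 0.000801 and 0.000265), calls that ended when a change of at least 1.5-fold was required. Ccr7 was lower in KO cells at 6 h, with a log2 fold change of -0.44 (limma adjusted p = 0.0332), a call that the replicate block ended (adjusted p = 0.0731), as did leaving out any 1 KO or WT library at 6 h, and over all alternatives its adjusted p ranged from 0.0136 to 1.

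Genes of the cell cycle and of quiescence linked to KLF2 and KLF4 were called lower for 11 of 13 and higher for 0 in each genotype, with a median of -0.84 in KO and -0.93 in WT cells against 0.22 and 0.21 over all genes tested. The list mixes both directions of function. Tsc22d3 (-2.76 in KO, -2.78 in WT cells), and the antiproliferative genes Btg2 (-1.84 and -2.002) and Btg1 (-1.33 and -1.40) fell, and so did Myc, a driver of growth (-1.50 and -1.60). Around KLF10 and KLF11, the TGF-beta and SMAD list had 5 of 11 called higher and 5 lower in each genotype, where 50.6% of all genes tested were higher and 27.9% lower in KO and 49.5% higher and 29.2% lower in WT cells. Smad3, a signal transducer of the receptor (2.55 and 2.20), and Tgfbr1, a receptor subunit (1.60 and 1.76), rose, while the corepressor genes Skil (-1.16 and -1.03) and Tgif1 (-0.87 and -0.80) fell. Median-of-ratios scaling left 3 higher and 7 lower in that list in each genotype. Beyond Cxcr4 and Ccr7, no gene of these lists was called between KO and WT cells or for the genotype difference in the change.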

How the data were processed

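Poly-A RNA of 12 libraries was measured, 3 in each of 4 groups taken from the sample titles. The deposited values are FPKM, the unit in the table's name. Per the submitters' processing notes, the authors used the build mm10, STAR and HTSeq; versions and the strand setting are not given in the sources used here. All 12 columns were used. Symbols (55141 genes) and positions (55227) came from GENCODE vM21.

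FPKM times the length of a transcript of the gene gave whole fragments for 99.1% of genes tested (11735, tolerance 0.01), and hence the depth. The longest transcript was tried first, and the others of the gene where it failed. The test was limma 3.58.1 on log2(FPKM + 1), run in R 4.3.3, with a mean for each of 4 groups, a variance trend and two-sided tests. Adjustment was by Benjamini-Hochberg over 11841 genes that averaged 1 FPKM or more, and genes were called at 0.05. The fit was tested on simulated data.

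The KLF genes, lists, tests and alternatives were chosen with earlier results of these data known. All 9 KLF genes, the tested genes of the other KLF and SP factors, up to 4 called genes per other list with the smallest p, and the 3 genes most alike each KLF gene were named, except for some that are not reported here. No list was tested as a set. Replicate numbers pair libraries across times within a genotype (deviations correlated at 0.365 to 0.476 in KO and 0.338 to 0.547 in WT cells), and not between genotypes (-0.075 to 0.01 at 6 h, -0.15 to 0.248 at 1 h). Floors and intervals on fragments cover counting error only.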

Additional observations from a re-analysis of the deposited data

How the results depend on the processing

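The KLF genes called with time numbered 7 to 9 of 9 in both genotypes over all alternatives. The 7 arose when a change of at least 1.5-fold was required, which Klf3 and Klf9 did not pass. Between genotypes and for the difference in the change, 0 of 9 were called under every alternative run. Of 1201 values of the KLF genes under alternatives, 1174 kept their direction and side of the threshold, 4 kept their direction and lost the call, and 23, none of them a called value, turned sign. Klf7 in KO against WT at 1 h (-0.02) turned to 0.0484 without WT replicate 3 at both times, and the genotype difference of Klf9 (0.02) to -0.000432 with quantile normalization. Leaving out 1 library gave -0.0727 to 0.0484 for Klf7 and -0.0522 to 0.0927 for Klf10 at 1 h, -0.0114 to 0.0673 for Klf4 and -0.0826 to 0.000173 for Klf11 at 6 h, and, for the genotype difference in the change, -0.0296 to 0.132 for Klf3, -0.00953 to 0.114 for Klf6 and -0.0133 to 0.0510 for Klf9. Without WT replicates 1 and 2 at both times, a setting chosen after seeing the data, 6 values turned: at 1 h Klf3 to 0.0123 and Klf10 to -0.127, at 6 h Klf7 to -0.0419 and Klf11 to 0.0420, and for the difference in the change Klf3 to -0.115 and Klf10 to 0.0793. Klf11 averaged under 5 FPKM and left the fit with that filter. Median-of-ratios scaling moved the all-gene median with time from 0.22 to -0.02 in KO and from 0.21 to -0.02 in WT cells, and turned Sp1 to -0.0620 in KO and -0.0573 in WT cells and Sp3 to -0.0987 in KO and -0.0807 in WT cells.

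The fit with the replicate block as a pairing term called 9 of 9 KLF genes with time in each genotype and 0 of 9 elsewhere, as without it, and ended the call of Ccr7, as did leaving out WT replicates 1 and 2 (adjusted p = 0.356). Over all genes, the count for KO against WT at 6 h was 27 and ran from 2 (1.5-fold) to 64 (without WT replicate 3 at both times), with 10 when only the groups compared were fitted, 12 at an adjusted p under 0.01, 11 without WT replicates 1 and 2 and 12 to 30 without 1 library. At 1 h it was 62 and ran from 4 (1.5-fold) to 191 (without WT replicate 3 at both times), with 115 without the filter, 32 with a filter of 5 FPKM, 21 when only the groups compared were fitted, 27 at an adjusted p under 0.01, 97 with voom on recovered fragments, 13 without WT replicates 1 and 2 and 30 to 142 without 1 library. For the difference in the change it was 3 and ran from 0 (pseudocount 0.1, filter of 5 FPKM, voom, without WT replicates 1 and 2) to 21 (no filter), with 1 under the block. With time, a 1.5-fold requirement lowered 9292 to 4053 in KO and 9324 to 4148 in WT cells. Depth limits Klf4 most, which had 54 to 69 fragments a library at 6 h.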

Other observations

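Klf12, which encodes a repressor that recruits CtBP as KLF3 does, was below the filter of a mean of 1 FPKM and was singled out after its values were seen. It was at 0.600, 0.714 and 0.956 FPKM in KO at 6 h and 1.73, 1.84 and 1.74 FPKM in KO at 1 h. In WT cells it was at 0.394, 0.347 and 0.537 FPKM at 6 h and 0.446, 0.952 and 1.27 FPKM at 1 h. All KO libraries lay above all WT libraries at each time. Among the genes that passed the filter, which leave out Klf12, this held for 8.1% at 6 h and 6.25% at 1 h. The share at both times was not counted. With no filter, limma gave a KO over WT log2 fold change of 0.30 at 6 h (adjusted p = 0.866) and 0.58 at 1 h (adjusted p = 0.207), so neither passed.

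Klf1, an erythroid factor, varied widely between libraries of a group. It was at 4.40, 0.322 and 1.11 FPKM in KO at 1 h and at 7.30, 6.02 and 0.587 FPKM in WT at 1 h. The 8 erythroid markers, Klf1 among them, summed to 496 to 1291 FPKM in KO and 522 to 1923 FPKM in WT libraries at 1 h, and WT replicate 3 was lowest of the WT libraries in both. Klf5, Klf14 and Klf15 stayed at 0.377 FPKM or below in every library.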
